A study of Mus musculus with 13 samples.

Results

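The secreted factors Gdf15, Adm, Vegfa, Angptl4 and Fst were followed, 5 of the 11049 genes that could be tested. They were found by the gene symbol in the probe descriptions, which gave 6 of the 24613 probes with a signal: 1 probe for each gene and a second one for Angptl4. The 5 genes were selected on their measured levels across these groups, with earlier results of the data in view, so their levels and changes are given as a description, with standard errors and no p-values. RNA levels were read with Illumina mouse bead arrays from primary cortical neurons taken from the fetal cortex of Swiss Albino mice at gestation day 15-16 and kept to day 5 of culture. The cultures received vehicle alone (4 samples) or rotenone, a blocker of mitochondrial complex I, at 10 nM with harvest after 8 h, 15 h or 24 h (3 samples each). No sample carries a mutation or transgene in the labels. The sources used here do not give the harvest time of the vehicle samples, and the titles of the vehicle samples name EGCG beside rotenone without saying more. Nothing says that the samples of a group came from separate cultures, so every error and p-value below measures the spread between these samples, which may be technical.

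All 5 genes encode proteins that leave the cell. GDF15, a distant member of the TGF-beta superfamily, is a circulating signal of mitochondrial and other cellular stress that acts on the brainstem through GFRAL and RET. Adrenomedullin (Adm) is a vasodilator peptide that acts through the calcitonin receptor-like receptor (Calcrl) together with a RAMP protein, and VEGF-A is the main growth factor of blood vessels, with KDR and FLT1 as receptors and the neuropilins as co-receptors. ANGPTL4 inhibits lipoprotein lipase, the enzyme that frees fatty acids from circulating lipoproteins, and its gene is a classical target of the PPAR nuclear receptors. Follistatin (Fst) differs from the other 4 factors in that it is an antagonist: it binds activins and keeps them from their type II receptors. Adm, Vegfa and Angptl4 are known targets of the hypoxia-inducible factors, and Gdf15 and Vegfa of the integrated stress response through ATF4.

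Promoter windows from RefSeq (build GRCm38.p6, 250 bases before to 50 after an annotated start) were at hand for 3 of the 5 genes. Those of the factors that reached higher levels at both late times are shown because letters known from hypoxia, stress and antioxidant response elements can be looked for in them. Gdf15 has 2 windows on the minus strand, chr8:70632407-70632706 and chr8:70632046-70632345. The Adm window lies on the plus strand at chr7:110627407-110627706, and the first Vegfa window on the minus strand at chr17:46032328-46032627. Capitals mark the motif letters that were found.
Gdf15 window 1: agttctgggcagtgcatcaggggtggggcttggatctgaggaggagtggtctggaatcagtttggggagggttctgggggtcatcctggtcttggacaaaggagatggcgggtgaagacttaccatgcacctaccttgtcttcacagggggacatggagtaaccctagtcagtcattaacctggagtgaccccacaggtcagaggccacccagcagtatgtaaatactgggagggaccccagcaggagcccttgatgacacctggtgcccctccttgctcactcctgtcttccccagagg
Gdf15 window 2: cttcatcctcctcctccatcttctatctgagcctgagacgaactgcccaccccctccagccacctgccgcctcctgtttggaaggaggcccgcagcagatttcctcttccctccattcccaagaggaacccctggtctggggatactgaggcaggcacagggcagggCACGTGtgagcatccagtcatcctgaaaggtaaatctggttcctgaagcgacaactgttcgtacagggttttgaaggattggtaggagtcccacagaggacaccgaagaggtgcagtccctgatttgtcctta
Adm window 1: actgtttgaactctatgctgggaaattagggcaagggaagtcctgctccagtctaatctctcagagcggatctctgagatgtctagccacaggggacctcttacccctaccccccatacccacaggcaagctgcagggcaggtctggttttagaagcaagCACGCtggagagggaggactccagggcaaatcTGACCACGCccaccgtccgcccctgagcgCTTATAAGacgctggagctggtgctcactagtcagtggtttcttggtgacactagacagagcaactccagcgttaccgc
Vegfa window 1: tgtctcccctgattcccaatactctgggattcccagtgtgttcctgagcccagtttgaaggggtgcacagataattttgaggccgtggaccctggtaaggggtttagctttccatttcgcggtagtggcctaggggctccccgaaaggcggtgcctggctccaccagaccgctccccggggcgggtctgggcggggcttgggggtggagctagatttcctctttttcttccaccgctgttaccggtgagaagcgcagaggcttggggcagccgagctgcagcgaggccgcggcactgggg
Both strands were searched for ACGTG and GCGTG (the core letters of hypoxia response elements), TGATGNAA (bound by ATF4 with a CEBP partner), TGANTCA (AP-1), TGACNNNGC (antioxidant response element) and the TATA forms TATAAA and TATAAG. The second Gdf15 window held ACGTG on each strand, 1 palindrome whose letters start at -83 and -82 from the annotated start. The Adm window held GCGTG on the minus strand at -90 and -54, TGACNNNGC at -58, which overlaps the latter, and TATAAG at -27 with its overlapping minus-strand match at -29. None of these letters occurred in the first Gdf15 window or the first Vegfa window, whereas a second Vegfa window at chr17:46025114-46025413, around an internal start, held GCGTG at -218 and ACGTG at -211. Over 32851 promoter windows of this length ACGTG occurred in 19.6%, GCGTG in 32.4%, TGACNNNGC in 12.4%, TATAAG in 7.43%, TATAAA in 13.6%, TGANTCA in 7.81% and TGATGNAA in 3.97%. A match describes the letters and is no evidence of binding.

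The mean signal of an array was 371 ± 34.2 in vehicle, 363 ± 34.8 at 8 h, 270 ± 16.1 at 15 h and 235 ± 20.7 at 24 h (SD), while 50.2% to 53.3% of probes were detected on each array. Replicate 1 of the 15 h group stood apart, with the lowest detected share and the lowest mean correlation with its own group (0.9749, against 0.9866 and 0.9859 for the other two). In a second deposited table, the array whose signals were identical to a sample's was labelled each time as another replicate of that sample's group, so the groups are the same under both labels while the chip differs for 3 samples.

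Gdf15 RNA, which was not detected above background on any of the 4 vehicle arrays, was the factor that differed most from vehicle at 15 h and at 24 h. Its deposited signal intensity was 52.7, 48.7, 49.6 and 35.9 on the vehicle arrays and 72.9, 46.7 and 56.6 at 8 h. It was 314.5, 695.9 and 748.8 at 15 h and 937.5, 851 and 1224.1 at 24 h. All 6 arrays of the late times lay far above every vehicle array, and replicate 1 of the 15 h group was the lowest of the 6. On the normalized log2 scale the mean was 6.01 ± 0.11 in vehicle (SD, n = 4), 6.25 ± 0.15 at 8 h, 9.43 ± 0.53 at 15 h and 10.49 ± 0.15 at 24 h (SD, n = 3 each). Because the vehicle arrays give only a bound, the difference on this scale was at least 9.16-fold at 15 h and at least 19.1-fold at 24 h. A bound of this kind sets the mean of the brighter group against the vehicle mean of the lowest signal that counted as detected, or of the probe itself where that was higher. It holds for the normalized scale alone and not for other scalings. The measured log2 changes were 0.25 ± 0.18 (SE) at 8 h, 3.42 ± 0.18 at 15 h and 4.48 ± 0.18 at 24 h. At 8 h the probe was detected on 2 of 3 arrays, and the normalized levels lay above every vehicle level although the deposited signals overlapped. From 15 h to 24 h the level was higher by 1.06 ± 0.19, and by 0.76 without the low 15 h replicate. The size depends on how background is removed: under neqc, which leaves a smaller floor, the changes were 4.95 at 15 h and 6.08 at 24 h. Without scaling between arrays the changes were 3.11 and 3.94, which is less than the bounds above.

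Adm RNA followed the same order of groups and was likewise undetected in vehicle, with smaller differences. Its deposited signal was 58.2, 51.3, 55.8 and 53 on the vehicle arrays, where it was detected on none, and 66.9, 46.6 and 53.3 at 8 h, where it was detected on 1. It was 100.6, 91.8 and 85 at 15 h and 96.7, 108.3 and 122.4 at 24 h, detected on all 6 arrays. The 8 h arrays lay on both sides of the vehicle arrays, and the 15 h and 24 h arrays all lay above them. On the normalized scale the bounds were at least 1.63-fold at 15 h and at least 2.12-fold at 24 h. The measured log2 changes were 0.78 ± 0.09 and 1.15 ± 0.09 (SE), against 0.05 ± 0.09 at 8 h. Without scaling between arrays the late changes were 0.60 and 0.82, again less than the bounds. Under neqc they were 1.58 at 15 h and 2.17 at 24 h. Between 15 h and 24 h the normalized levels did not overlap and differed by 0.37 ± 0.10, whereas the deposited signals of the 2 times did overlap.

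Vegfa RNA was detected on all 13 arrays and was higher than in vehicle at both late times. Its deposited signal was 685.1, 550.4, 793.5 and 457 in vehicle and 1266.9, 667.5 and 914.1 at 8 h. At 15 h it was 1166.3, 1337.5 and 1172.3, and at 24 h it was 1066.4, 1223.9 and 1501. The 8 h arrays overlapped the vehicle arrays, while every 15 h and 24 h array exceeded the highest of them. On the normalized log2 scale the change was 0.59 ± 0.15 at 8 h, 1.56 ± 0.15 at 15 h and 1.85 ± 0.15 at 24 h (SE), or 2.95-fold and 3.59-fold at the later times. At 8 h, where Vegfa was not called, leaving out vehicle replicate 3, the brightest of its group, gave 0.72 and leaving out 8 h replicate 2 gave 0.75, both past the threshold of the fit. The step from 8 h to 15 h was 0.96 ± 0.16, and that from 15 h to 24 h was 0.29 ± 0.16. The late values of Vegfa depended on the scaling of the arrays: median scaling gave 1.07 and 1.16 at 15 h and 24 h, and the step from 8 h to 15 h shrank to 0.45, which was no longer past the threshold of the fit.

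Angptl4 was the only factor of the 5 that was lower than vehicle at 8 h and higher at both later times, and both of its probes showed this on the normalized scale. The first probe had deposited signals of 438.6, 356, 365 and 469.9 in vehicle and of 155.9, 60.1 and 140.7 at 8 h. At 15 h it read 647.4, 1436.4 and 1254.6, and at 24 h it read 541.7, 556.3 and 617.7. Every 8 h array lay below every vehicle array, every later array lay above them, and the 24 h signals were closely grouped below all 15 h signals. The log2 change against vehicle was -1.52 ± 0.22 at 8 h, a 2.87-fold lower level, 1.91 ± 0.22 at 15 h and 1.24 ± 0.22 at 24 h (SE). The step from 8 h to 15 h, 3.43 ± 0.24 or 10.8-fold, stood beside 3.17 ± 0.19 for Gdf15. The second probe read 80.9, 90.2, 78.2 and 101.5 in vehicle, 76.9, 56.4 and 58 at 8 h, 136.3, 198.4 and 204.6 at 15 h, and 93.1, 84.5 and 98.2 at 24 h. Its changes were -0.28 ± 0.11, 1.19 ± 0.11 and 0.44 ± 0.11, smaller than those of the first probe at each time but of the same sign. Its deposited signals at 24 h lay within the vehicle range, with a mean of 91.9 against 87.7 in vehicle. The 24 h levels of this probe lay above every vehicle level on the normalized scale but not in the deposited signals. Without scaling between arrays the 24 h change was 0.48 for the first probe, no longer past the threshold of the fit, and 0.09 for the second. Between 15 h and 24 h both probes were lower at the later time, by -0.67 ± 0.24 and -0.75 ± 0.12, and the first by -0.95 without 15 h replicate 1.

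Fst, the activin antagonist, ran opposite to Angptl4: it was higher than vehicle at 8 h and lower at 15 h and 24 h. Its deposited signal was 180.5, 197.7, 403.2 and 212 in vehicle and 582.2, 443.9 and 508.7 at 8 h. It was 74.3, 89.2 and 86.8 at 15 h and 76.8, 74 and 71.6 at 24 h. No rotenone group overlapped the vehicle arrays, although vehicle replicate 3 stood well above the other 3 vehicle arrays and close to the 8 h arrays. The log2 change was 1.01 ± 0.18 at 8 h, -0.996 ± 0.18 at 15 h and -0.99 ± 0.18 at 24 h (SE), so that Fst was 1.99-fold and 1.98-fold lower than vehicle at the later times. Without vehicle replicate 3 these values were 1.24, -0.77 and -0.76. From 8 h to 15 h Fst fell by 2.01 ± 0.20, or 4.03-fold, and from 15 h to 24 h the difference was 0.01 ± 0.20.

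**Figure D1:**
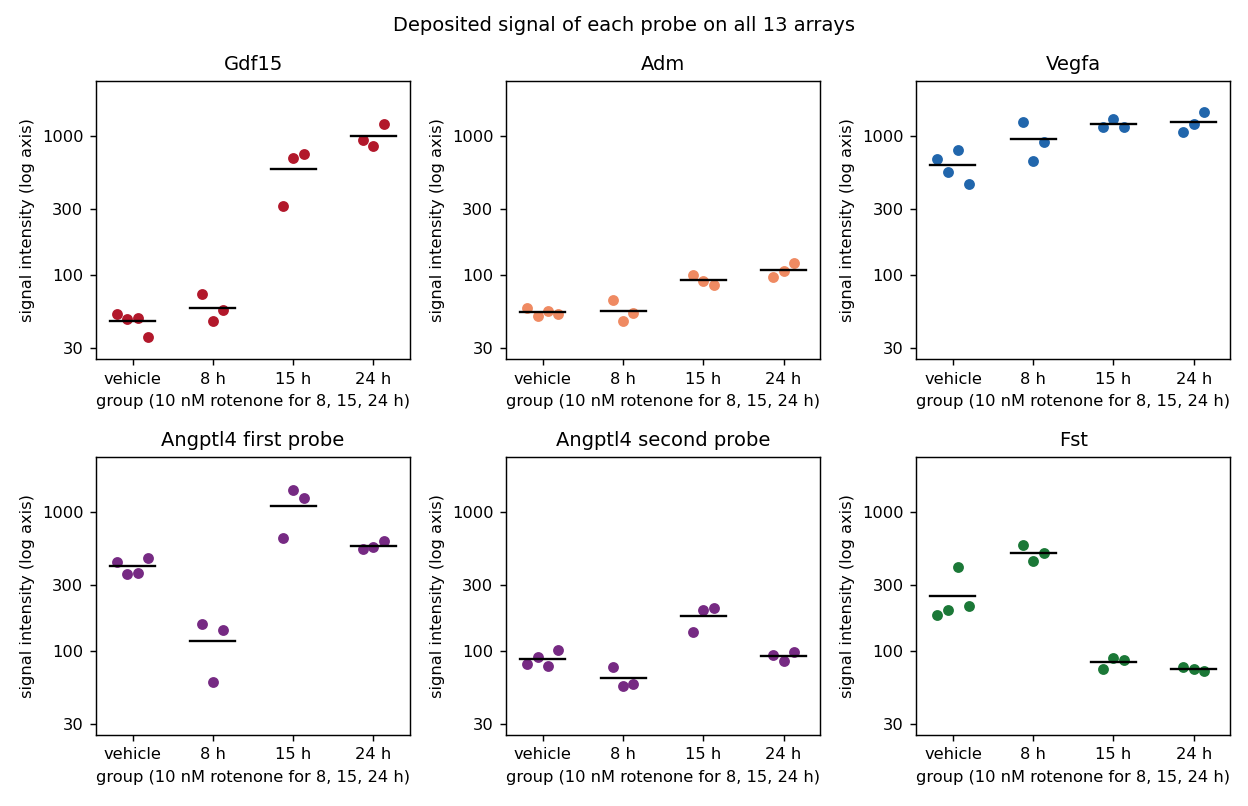
Deposited signal intensity of the 6 probes on a log axis, one point per array, for vehicle (4 arrays) and for rotenone at 10 nM after 8 h, 15 h and 24 h (3 arrays each), with a black line at each group's arithmetic mean. Gdf15 lies between 35.9 and 72.9 in vehicle and at 8 h and between 314.5 and 1224.1 later, the first Angptl4 probe dips at 8 h, and Fst peaks there.

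**Figure D2:**
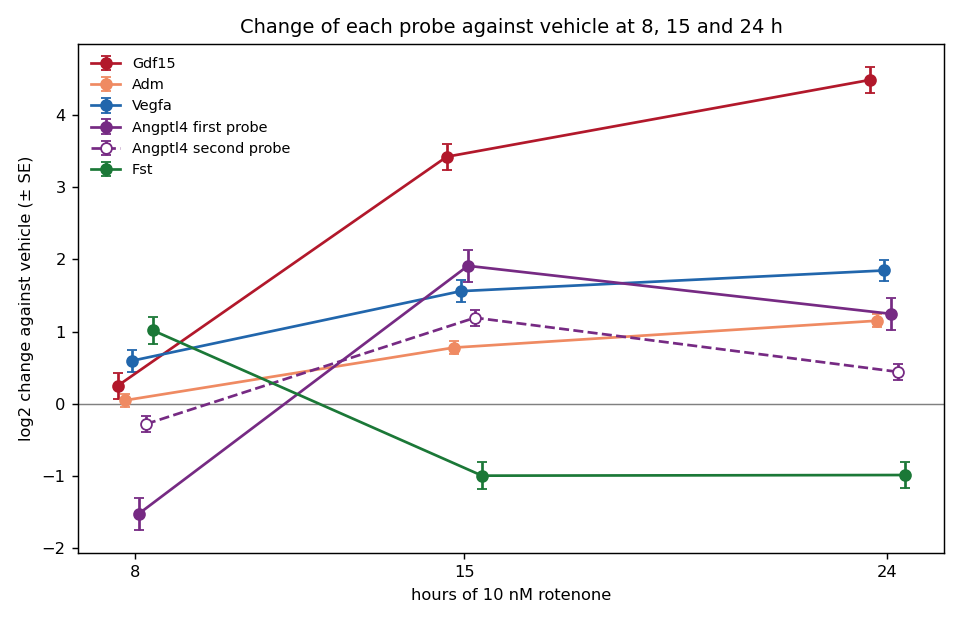
Log2 change of each probe against vehicle (quantile-normalized scale) at 8 h, 15 h and 24 h, with bars of 1 SE from the fit. Gdf15 reaches 4.48 at 24 h, Angptl4 goes from -1.52 to 1.91 between 8 h and 15 h, and Fst from 1.01 to -0.996.

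Set side by side, the factors were spread on both sides of vehicle at 8 h and stood 4 above and 1 below from 15 h on. The limma fit of all genes (4 groups, Benjamini-Hochberg adjustment, threshold 0.05) placed 1 factor higher (Fst) and 1 lower (Angptl4) at 8 h, where 0.145% of all genes were called higher and 0.29% lower, 0.434% in all. At 15 h and at 24 h it placed 4 higher and 1 lower, beside 50.2% of all genes called at 15 h (25.4% higher, 24.7% lower) and 54.8% at 24 h (27.4% each way). Of the 4 scalings tried, quantile scaling alone gave this even split of all genes. At 15 h median scaling called 12.7% of all genes higher and 41.3% lower, and no scaling 7.48% and 46.9%. At 24 h median scaling called 13.55% higher and 48.8% lower, and no scaling 8.17% and 59.3%. Between 8 h and 15 h the fit again placed 4 higher and Fst lower, with 51.2% of all genes called (25.8% higher, 25.4% lower, against 13.4% and 40.8% under median scaling). The Vegfa call in that step was lost under median scaling (0.45), without scaling (0.40) and in the authors' values (0.46), which left 3 higher. Between 15 h and 24 h it placed Gdf15 and Adm higher, with 22.4% called (12.2% higher, 10.2% lower, against 5.43% and 11% under median scaling). The Adm call there was lost without scaling (0.225) and when 15 h replicate 2, 15 h replicate 3 or 24 h replicate 2 was left out (0.31, 0.30 and 0.35), and the Gdf15 call in the authors' values (0.99). Angptl4 was called lower in that step under median scaling (-0.81), without scaling (-0.86) and when 8 h replicate 2 (-0.66) or 15 h replicate 1 (-0.95) was left out. With about every other gene called at the late times, and the factors picked for their values, nothing is read from these counts. Against vehicle the normalized levels did not overlap for 3 factors at 8 h and for 5 at each later time, where 11.4%, 50.1% and 61% of all genes did not overlap. The median change of the 5 factors was 0.25, 1.56 and 1.24 at 8 h, 15 h and 24 h, with all-gene medians of 0.00, 0.02 and 0.01. The 3 comparisons against vehicle share the same 4 control arrays. Of the 2 calls at 8 h, that of Fst was the less secure. It was lost when vehicle replicate 1, 2 or 4, or 8 h replicate 1 or 3, was left out, with changes of 0.87 to 1.02. The Angptl4 call at 8 h was kept when any 1 array was left out.

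Some of the 15 h values depended on 1 array, and the values of both late groups depended on the scaling. Without 15 h replicate 1 the 15 h change was 3.75 for Gdf15, 0.67 for Adm, 1.53 for Vegfa, 2.19 for the first Angptl4 probe and -0.97 for Fst. Because quantile normalization gives all arrays the same distribution, the late groups were also read with other scalings. Median scaling, no scaling and the authors' normalized values placed the all-gene median at -0.16, -0.25 and -0.18 at 15 h and at -0.25, -0.39 and -0.24 at 24 h. Under these 3 scalings Gdf15 changed by 3.11 to 3.68 at 15 h and by 3.94 to 4.67 at 24 h, and Adm by 0.60 to 0.88 and 0.82 to 1.24. Vegfa changed by 0.98 to 1.12 and 1.02 to 1.29, the first Angptl4 probe by 1.34 to 1.496 and 0.48 to 0.74, and Fst by -1.38 to -1.23 and -1.42 to -1.28. Relative to the all-gene median of the same scaling, the 24 h change of Angptl4 was 0.87 to 0.99, that of Vegfa 1.41 to 1.53 and that of Fst -1.18 to -1.02.

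**Figure D3:**
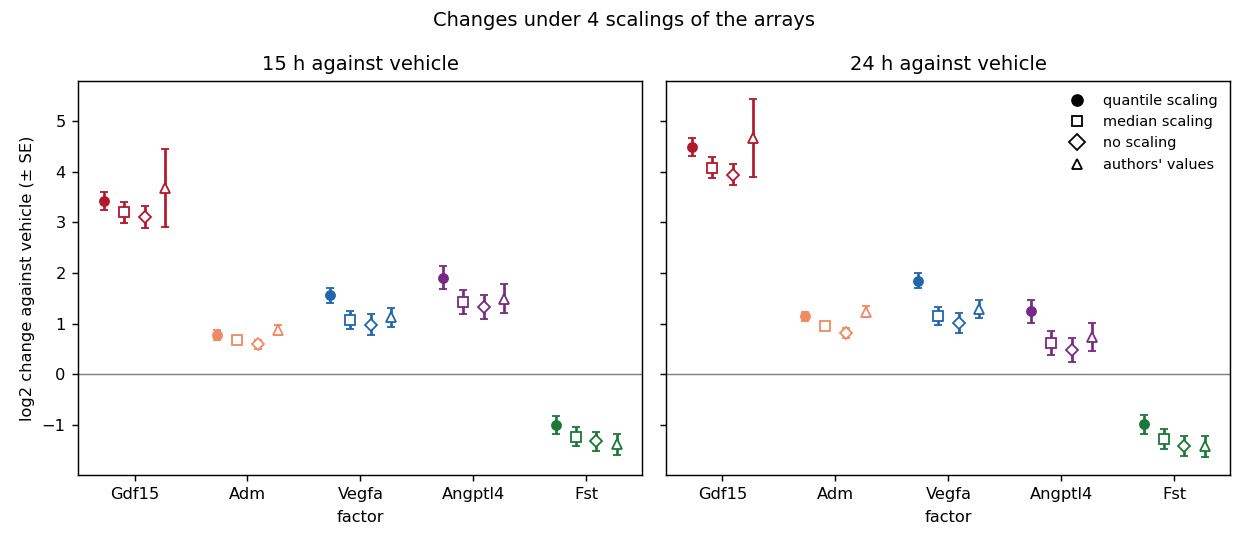
Log2 change of the 5 factors against vehicle at 15 h and 24 h with bars of 1 SE, under quantile scaling (filled circles), median scaling, no scaling and the authors' normalized values (open symbols). Gdf15, Adm, Vegfa and the first Angptl4 probe stay above 0 and Fst below 0 in all 4, and Angptl4 at 24 h goes from 1.24 to 0.48.

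The arrays lay on 2 chips, each with arrays of several groups, and the assignment to chips was read in both ways. Within single chips (4 fits) the late changes kept their signs: Gdf15 changed by 2.77 to 3.88 at 15 h and 4.36 to 4.67 at 24 h, and Vegfa by 1.42 to 1.68 and 1.79 to 1.87. Adm changed by 0.61 to 1.07 and 1.09 to 1.16, Angptl4 by 1.45 to 2.08 and 1.08 to 1.39, and Fst by -1.30 to -0.68 and -1.47 to -0.54. At 8 h Angptl4 changed by -1.76 to -1.16 and Fst by 0.66 to 1.38.

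Marker genes of the cell types a cortical culture can hold moved as well, on the quantile-normalized scale. In bulk samples, fewer cells of a type and less RNA per cell cannot be told apart. The summed normalized level of 5 of 6 neuron markers was 11210 to 12400 in vehicle, 11040 to 12550 at 8 h, 2385 to 4238 at 15 h and 2958 to 3314 at 24 h, with 3 of the 5 called lower and Snap25 higher (0.20) at 15 h by limma, and 4 lower at 24 h. Rbfox3 had no probe and Syp was detected on all 13 arrays. That of 5 of 7 astrocyte markers was 10040 to 12080, 6525 to 10340, 23420 to 28240 and 20740 to 22460, with 3 called higher at 15 h, and 4 higher and Aqp4 lower (-0.49) at 24 h. Gfap and Aqp4 were detected on every array. The neuron sums of every 15 h and 24 h array lay below, and the astrocyte sums above, those of all vehicle arrays. Pericyte and fibroblast markers (4 of 8 measured) summed to 1211 to 1598 in vehicle, 1231 to 2002 at 8 h, 4779 to 5070 at 15 h and 9960 to 10980 at 24 h, with Pdgfrb detected throughout and Col1a1 on no array. These 4 did not move together: Acta2, a smooth muscle actin, changed by 2.37 at 15 h and 3.53 at 24 h, Cspg4 was called higher at 24 h (0.35), Dcn lower at both times (-0.58 and -0.49), and Pdgfrb at neither (0.18 and -0.13). Oligodendrocyte lineage markers (7 of 7) summed to 11340 to 12390, 7007 to 9602, 9151 to 14300 and 4155 to 4583. Gpr17 was called lower at 8 h (-1.19), Mbp at 15 h (-0.18) and 6 of the 7 at 24 h, with none called higher. The sums of all 8 h arrays lay below those of all vehicle arrays. Microglial markers (4 of 7) summed to 347.3 to 368.9 in vehicle, then to 336.4 to 372.1, 373.3 to 423.1 and 436.2 to 458.2. Tyrobp was called higher at 15 h (0.46) and 24 h (0.78) and C1qa at 24 h (0.33). C1qb (0.19) and Aif1 (-0.05) were not called at 24 h. Endothelial markers (3 of 8) summed to 214.7 to 227.8 in vehicle, then to 223.3 to 234.1, 224.2 to 228.4 and 254.9 to 273.9. Of these only Flt1 was called, higher at 15 h (0.20) and 24 h (0.76). Cldn5 (-0.03) and Esam (-0.07) were not called at 24 h. Cx3cr1 was detected on 1 array of 13, Pecam1 on 1 and Cldn5 on 7. Aif1, also a microglial marker, was detected on 2 of 3 arrays at 15 h and on every other array. Of the oligodendrocyte lineage, Sox10 was detected on every array, and Olig2 on 1 of 3 at 24 h and on every other array. Astrocytes and pericytes are known sources of VEGF-A. The part of any of these cells in the factors' changes was not tested.

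Several main receptors of the 5 factors were not detected, and the receptors and binding partners that were measured split between higher and lower. The gene lists here and below were chosen with earlier results of these data known. Genes named from them belong to a fixed set or had the smallest p of their list. Their adjusted p-values are therefore given as a description. Of 31 receptors and partners listed, 20 were tested, and Ret, Calcrl and Kdr, the main signalling receptors of GDF15, adrenomedullin and VEGF-A, were detected on no array. Gfral, which encodes the other receptor protein of GDF15, was among the 20 tested, so it passed the detection filter. None was called at 8 h by limma (0 at an unadjusted p under 0.05 as well, and 4 with array weights), 9 were higher and 5 lower at 15 h, and 7 were higher and 7 lower at 24 h. The median change was -0.04, 0.13 and -0.10 at the 3 times, against all-gene medians of 0.00, 0.02 and 0.01. All genes were split 25.4% higher and 24.7% lower at 15 h and 27.4% each way at 24 h. Without scaling between arrays 3 receptors and partners were higher and 9 lower at 15 h and 4 and 13 at 24 h, where all genes were split 7.48% and 46.9%, and 8.17% and 59.3%.

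Among the partners of the ligands, Flt1, which binds VEGF-A, was detected on 1 of 4 vehicle arrays and rose by 0.76 ± 0.07 at 24 h (limma, adjusted p = 1.6e-07). At 15 h the Flt1 change was 0.20 ± 0.07 (adjusted p = 0.024), and this call was not secure. It was lost in 8 of 30 alternatives: without scaling between arrays (0.14), within both readings of chip 2 (0.145 and 0.17), and when vehicle replicate 1, 2 or 3 or 15 h replicate 1 or 2 was left out (0.15 to 0.20). Itgb1, an integrin subunit that binds matrix and several secreted ligands, rose by 1.13 ± 0.09 at 15 h (adjusted p = 1.3e-07) and by 1.43 ± 0.09 at 24 h (adjusted p = 4e-09), with 0.45 and 0.49 on its other probe. Sdc4, a heparan sulfate proteoglycan, rose by 0.99 ± 0.15 at 15 h and 0.92 ± 0.15 at 24 h (adjusted p = 5e-05 and 8.3e-05). The 24 h change of Sdc4 was 0.28 and no longer called without scaling.

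Lpl, the lipase that ANGPTL4 inhibits, fell by 0.98 ± 0.13 at 15 h (adjusted p = 1.7e-05, limma) and by 0.90 ± 0.13 at 24 h (adjusted p = 3.2e-05), while Angptl4 itself was higher. Acvr2a, the type II receptor of the activins that follistatin binds, fell by 0.48 ± 0.12 at 15 h (adjusted p = 0.0027) and by 1.21 ± 0.12 at 24 h (adjusted p = 2.5e-07), when it was detected on 1 of 3 arrays. Acvr2b, the other such receptor, had a change of 0.45 ± 0.15 at 15 h (adjusted p = 0.021), which turned to -0.04, -0.13 and -0.02 under median scaling, no scaling and the authors' values and was not called without vehicle replicate 4 (0.33) or 15 h replicate 1 (0.41), and of 0.26 ± 0.15 at 24 h (adjusted p = 0.16). Inhba, which encodes the subunit of activin A, had no probe.

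The RAMP proteins, which decide whether the Calcrl receptor binds adrenomedullin or CGRP, did not move together. Ramp1, the CGRP partner, rose by 0.65 ± 0.13 at 15 h and 0.61 ± 0.13 at 24 h (limma, adjusted p = 0.00065 and 0.00088), a call lost under median scaling (0.35 and 0.22), without scaling (0.26 and 0.08) and in the authors' values (0.41 and 0.31). Ramp2, an adrenomedullin partner, had a change of 0.29 ± 0.10 at 15 h (adjusted p = 0.021), which turned to -0.20, -0.29 and -0.18 under the same 3 scalings and was not called without vehicle replicate 1 or 2 (both 0.27), and fell by 0.42 ± 0.10 at 24 h (adjusted p = 0.0016). Ramp3, the other adrenomedullin partner, fell by 0.34 ± 0.12 at 15 h (adjusted p = 0.021), a call lost without vehicle replicate 4 (-0.22) or 15 h replicate 1 (-0.29), and differed by -0.20 ± 0.12 at 24 h (adjusted p = 0.15). The neuropilins gave no stable call. Nrp1 differed by -0.36 ± 0.16 at 15 h and 0.07 ± 0.16 at 24 h (adjusted p = 0.065 and 0.72), and was called lower under the other scalings, with -0.87, -0.96 and -0.86 at 15 h and -0.62, -0.76 and -0.53 at 24 h, and at 15 h also without vehicle replicate 4 (-0.48) or 8 h replicate 2 (-0.36) and with the replicate block (-0.48). Nrp2, detected on 1 vehicle array and on none at 15 h or 24 h, differed by -0.19 ± 0.07 at both times (adjusted p = 0.034 and 0.027), with 0.02 and 0.08 when no detection filter was set, and lost the call at 15 h without 15 h replicate 1 or 2 and at 24 h without 24 h replicate 2 or 3 (-0.18 to -0.16).

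Relatives of the factors in the TGF-beta, VEGF, calcitonin, follistatin and angiopoietin-like families were called 11 higher and 2 lower at 15 h and 11 higher and 5 lower at 24 h, where all genes were split about evenly. Of 31 listed, 19 were tested. None was called at 8 h by limma (at an unadjusted p under 0.05, 1 was higher and 2 were lower, and 5 with array weights). The calls made up 68.4% of the list at 15 h and 84.2% at 24 h, beside 50.2% and 54.8% of all genes, and the medians were 0.02, 0.27 and 0.53 at the 3 times. Without scaling 5 were higher and 4 lower at 15 h, and 7 each way at 24 h, where 7.48% of all genes were higher and 46.9% lower, and 8.17% and 59.3%. Angptl2, another angiopoietin-like protein, was detected on no vehicle array. On the normalized scale it was at least 1.53-fold higher at 15 h and at least 1.28-fold at 24 h (limma, adjusted p = 1e-07 and 2.6e-06). Tgfb2, which encodes TGF-beta 2, rose by 1.12 ± 0.12 and 1.15 ± 0.12 (adjusted p = 2e-06 and 8.5e-07). Fstl1, a follistatin-like glycoprotein, rose by 0.88 ± 0.10 and 1.099 ± 0.10 (adjusted p = 2.5e-06 and 1.3e-07), opposite in sign to Fst, with 0.30 and 0.29 and no call without scaling. Bmp4, a bone morphogenetic protein, rose by 0.32 ± 0.09 at 15 h and by 1.12 ± 0.09 at 24 h (adjusted p = 0.011 and 6e-08), the former lost without scaling (0.22). Angptl6 rose by 1.18 ± 0.11 at 24 h (adjusted p = 1.6e-07). At 15 h its change of 0.40 ± 0.11 (adjusted p = 0.0062) turned to -0.08, -0.17 and -0.06 under median scaling, no scaling and the authors' values.

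Among known regulators of the 5 genes, Ddit3, Atf3, Atf4 and Nfe2l2, all of stress responses, were higher at both late times, and Atf4 not called at 15 h without scaling. Of 29 regulators listed, 22 were tested. None was called at 8 h by limma (at an unadjusted p under 0.05, 2 were higher and 1 was lower, and 10 with array weights), 16 were higher and 2 lower at 15 h, and 13 higher and 3 lower at 24 h, with medians of 0.04, 0.76 and 0.47. All genes were called in 50.2% at 15 h and 54.8% at 24 h, split about evenly. Without scaling the split of the regulators was 9 and 6 at 15 h and 7 and 6 at 24 h, beside the unscaled shares of all genes given for the relatives. Ddit3, which encodes the stress factor CHOP, rose by 2.55 ± 0.22 at 15 h (adjusted p = 1.7e-07) and by 3.31 ± 0.22 at 24 h (adjusted p = 4.2e-09). Atf3, a stress-induced transcription factor, was detected on 1 vehicle array and rose by 1.66 ± 0.17 and 3.10 ± 0.17 (adjusted p = 8.5e-07 and 5.8e-10). Atf4, the central factor of the integrated stress response and controlled mainly through translation, rose by 1.04 ± 0.16 and 1.86 ± 0.16 (adjusted p = 5.6e-05 and 7.6e-08), with 1.41 and 1.51 on its other probe. Its 8 h change was 0.61 ± 0.16 (adjusted p = 0.12), called without 8 h replicate 2 (0.83) or 15 h replicate 1 (0.61), and its 15 h call was lost without scaling (0.43).

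Nfe2l2, which encodes the antioxidant regulator NRF2, rose by 1.75 ± 0.12 at 15 h and 1.91 ± 0.12 at 24 h (limma, adjusted p = 1.7e-08 and 2e-09). Rxra, the partner receptor of the PPARs, was detected on no vehicle array. On the normalized scale it was at least 2.24-fold higher at 15 h and at least 1.59-fold at 24 h (limma, adjusted p = 2e-08 and 1.2e-06). Trp53, which encodes p53, a known activator of Gdf15, gave no settled value at 15 h. Its 15 h change of 0.00 ± 0.17 (adjusted p = 0.99) became a call higher without 15 h replicate 1 (0.29) and with array weights (0.28), and a call lower without scaling (-0.51) and within the matched chip 1 (-0.56). At 24 h the Trp53 change was 0.93 ± 0.17 at 24 h (adjusted p = 0.0002), a call lost under median scaling (0.33), without scaling (0.20) and in the authors' values (0.44). Hif1a and Epas1, listed for the hypoxia-inducible factors that act on Adm, Vegfa and Angptl4, were detected on no array. Their RNA could not be followed, and the activity of these factors was not measured.

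Among other secreted growth factors, cytokines and neuropeptides, 27 of the 35 measured were called at 24 h, where 54.8% of all genes were, and 1 at 8 h, where 0.434% were. Of 48 listed, 35 were tested by limma, with 0 higher and 1 lower at 8 h, 15 higher and 6 lower at 15 h, and 21 higher and 6 lower at 24 h, and medians of -0.05, 0.12 and 0.42. Without scaling 6 were higher and 9 lower at 15 h, and 14 and 9 at 24 h, where 7.48% of all genes were higher and 46.9% lower, and 8.17% and 59.3%. Sst, the neuropeptide somatostatin, was the 1 called at 8 h: it fell by 1.29 ± 0.13 (limma, adjusted p = 0.00027), then fell by 2.84 ± 0.13 at 15 h and fell by 3.00 ± 0.13 at 24 h (adjusted p = 9.5e-10 and 6.6e-11). Csf1, a growth factor of macrophages and microglia, rose by 1.36 ± 0.10 and 1.71 ± 0.10 (adjusted p = 2.4e-08 and 7e-10), and Stc2, a secreted glycoprotein of stressed cells, by 1.18 ± 0.12 and 1.72 ± 0.12 (adjusted p = 5.8e-07 and 4.8e-09). Hbegf and Cxcl1 had their larger changes at 24 h. Hbegf, an EGF receptor ligand, rose by 0.58 ± 0.11 at 15 h, a call lost under median scaling (0.29), without scaling (0.20) and in the authors' values (0.35), and by 2.36 ± 0.11 at 24 h (adjusted p = 0.00031 and 7.8e-11). Cxcl1, a chemokine, differed by 0.26 ± 0.12 at 15 h (adjusted p = 0.087), 0.09 to 0.37 with an array left out and called without vehicle replicate 3 (0.32) or 15 h replicate 2 (0.37), and rose by 2.35 ± 0.12 at 24 h (adjusted p = 3.6e-10).

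**Figure D4:**
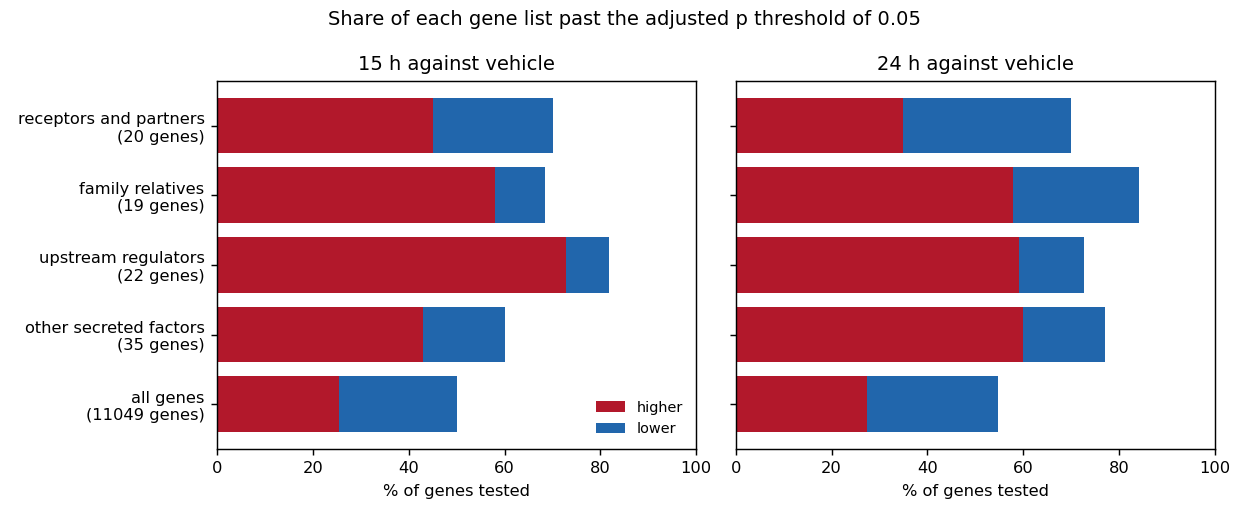
Share of the tested genes of each list, and of all 11049 genes, past the limma threshold (adjusted p under 0.05) at 15 h and 24 h against vehicle, higher in red and lower in blue. Upstream regulators reach 81.8% called at 15 h and family relatives 84.2% at 24 h, beside 50.2% and 54.8% of all genes.

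The genes whose course over the 13 arrays was nearest to each factor were found by the root mean square difference of log2 levels, each gene taken relative to its vehicle mean. This is a measure of likeness only, computed for all genes and chosen with these data, and it carries no test. Gdf15 was nearest to Nupr1 (0.35), a stress-induced nuclear protein, Gadd45a (0.47), a growth arrest gene, and Ooep (0.51), an oocyte gene. Nupr1 changed by 0.23, 3.58 and 3.86 at 8 h, 15 h and 24 h, and Gadd45a by 0.05, 2.54 and 4.36, beside 0.25, 3.42 and 4.48 for Gdf15. Adm was nearest to E2f3 (0.10), Otx2 (0.11) and Sh3glb1 (0.11), genes with changes of 0.97 to 1.21 at 24 h. Vegfa was nearest to Snhg17 (0.17), a noncoding host of small nucleolar RNAs, Cav1 (0.21), which encodes caveolin 1, and Chac1 (0.24), an ATF4 target that degrades glutathione. Chac1 changed by 0.60, 1.20 and 1.97, beside 0.59, 1.56 and 1.85 for Vegfa.

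Angptl4 was nearest to Eci1 (0.49), an enzyme of fatty acid oxidation, Pla2g7 (0.49), a secreted phospholipase, and Ephx1 (0.53), a microsomal epoxide hydrolase. All 3 had lower means than vehicle at 8 h, by -0.80 to -0.59, and higher means later. From 15 h to 24 h they differed: Eci1 came down from 1.77 to 1.05, beside 1.91 and 1.24 for Angptl4. Pla2g7 went from 1.57 to 1.47, and Ephx1 went up from 1.40 to 1.85. Fst was nearest to Acat2 (0.35) and Fdps (0.36), both enzymes of the mevalonate and sterol pathway, and to Dync1li1 (0.36), a dynein light intermediate chain. Fdps changed by 0.81, -0.74 and -0.65, beside 1.01, -0.996 and -0.99 for Fst. For Gdf15, Vegfa and Angptl4 all 3 nearest genes stayed among the nearest 20 in the 20 settings tried. For Adm 1 or 2 of 3 stayed under other scalings and neqc, and for Fst none stayed under neqc or without vehicle replicate 1. Among the factors themselves, Adm and Vegfa were the closest pair (0.59) and Gdf15 and Fst the most distant (3.41).

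**Figure D5:**
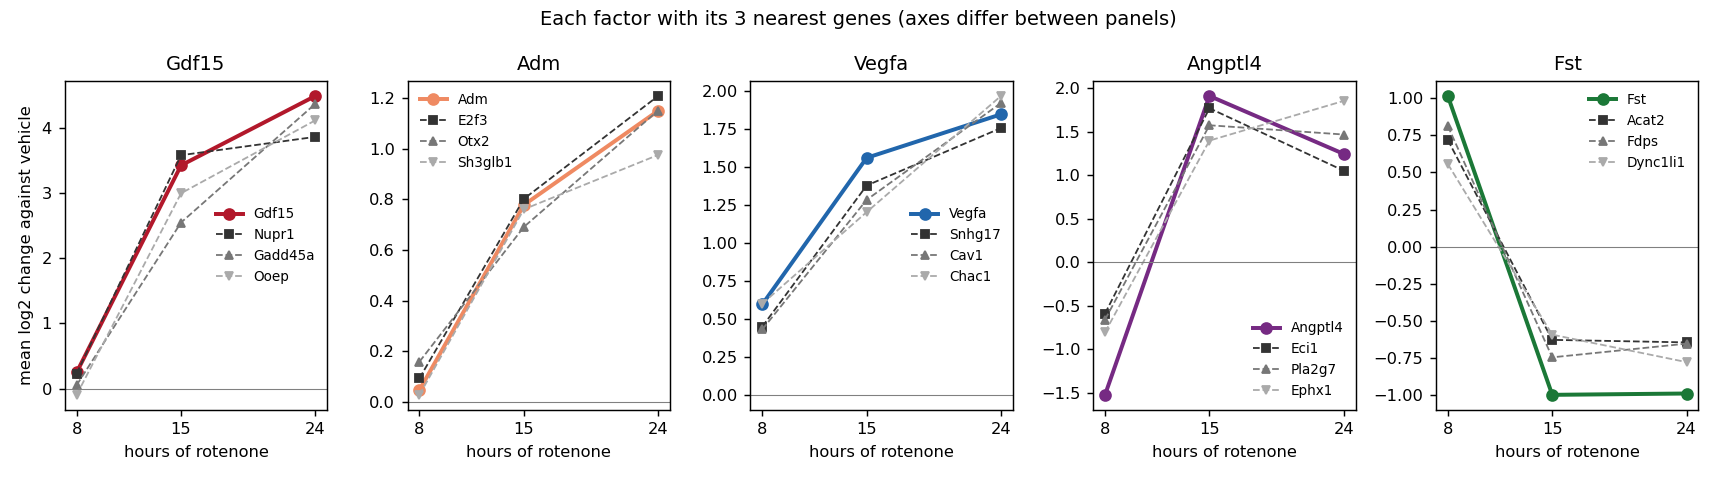
Mean log2 change against vehicle at 8 h, 15 h and 24 h of each factor (coloured) and of its 3 nearest genes (grey, dashed), with a separate vertical axis in each panel. Nupr1 reaches 3.86 and Gdf15 4.48 at 24 h, and the neighbours of Angptl4 dip at 8 h while those of Fst rise there.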

How the data were processed

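Biotin-labelled cRNA was hybridised to Illumina MouseRef-8 arrays, per the labels' protocols, in 13 samples. The probe table the authors deposited gives the bead signal intensity of each probe, unscaled between arrays. The deposited gene profile holds signal intensity per gene with no normalization and the score of detection as a fraction (the detection p subtracted from 1); it was made in BeadStudio 3.2.6, per the file headers. The normalized values of the authors are a ratio of each signal to the array median and then to the control median, found by recomputing them (largest relative difference 3.75e-07). The probe table has no detection p, so it was interpolated for each probe from its signal. The curve of detection against signal came from 13060 genes with 1 probe. These were read on the profile array whose signals were the same within a tolerance of 0.05. In each of the 13 cases this array belonged to the sample's group, but was another replicate than the label names. Another 102 profile columns of per-sample values were not used. The samples' pairing by replicate number was looked at: same-numbered samples' deviations correlated at -0.124 to 0.215, over 0.1 in 5 of 18 pairs. Differently numbered samples were not compared, so these values cannot decide whether the numbers pair samples. The main fit took no pairing, and a replicate block was among the alternatives.

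Of 24923 probe lines 24613 had a signal. Symbols came from RefSeq accessions for 20514 probes and from the description for 2557, a further 468 description symbols are not in the reference, and 1074 probes had none. Signals were corrected with normexp (offset 50), taken to log2 and then quantile-normalized. Probes with detection p under 0.05 on at least 3 arrays were kept (14347, of which 490 without a symbol), and the brightest probe per gene gave 11049 genes. All 4 groups were fitted together in limma 3.58.1 (R 4.3.3; lmFit, then eBayes with a trend; 9 residual degrees of freedom), with Benjamini-Hochberg adjustment over all genes per comparison and a threshold of 0.05. The number of arrays limits the precision. The fit was tried on simulated data with known changes in a few genes of the 24 h group. It called 73.1% of genes changed 1.5-fold, 98.5% of those changed 2-fold, 100% of those changed 4-fold and 0.101% of unchanged genes. The simulated noise was normal and independent between genes and arrays, with no chip effect and no outlying array. These shares hold for such data only. Because few genes were changed, the trial does not bear on the scaling of late groups, where 50.2% and 54.8% of all genes were called.

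The factors, the gene lists and the alternatives were chosen with earlier results of these data known. Named genes are all probes of the 5 factors, the 3 called genes with the smallest p of each list at each time, a fixed set of receptors and regulators (Calcrl, Ramp1 to Ramp3, Kdr, Flt1, Nrp1, Nrp2, Acvr2a, Acvr2b, Inhba, Lpl, Ret, Ddit3, Atf4, Hif1a and Trp53), and the 3 nearest genes of each factor. Alternatives were no background correction (offset 16), neqc, median scaling, no scaling, the authors' values, no detection filter or one at 0.01, the mean of probes, chips as a block or singly under both assignments, weights per array, a replicate block, a fit of only the groups compared, and each array left out in turn.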

Additional observations from a re-analysis of the deposited data

Results flagged for a closer look

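Gdf15 on the vehicle arrays was singled out because one array lay far from the other 3: its lowest level, in replicate 4 (signal 35.9), was separated from the next by 0.92 of the whole range of the 4. The probe was detected on none of these arrays. About 5% of groups are singled out this way by chance, and 6 probes were looked at.

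Fst was singled out because every 8 h array lay above all vehicle arrays (log2 change 1.01) and every 15 h and 24 h array below them (-0.996 and -0.99). Angptl4 was singled out for the opposite course: 8 h below (-1.52 for the first probe, -0.28 for the second), 15 h above (1.91 and 1.19) and 24 h above (1.24 and 0.44). That the effect differs between these times was not tested for either gene, because the genes were chosen with these values known.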

How the results depend on the processing

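Each factor value and count was recomputed under 30 alternatives. Of 30 factor values, counting both Angptl4 probes and 5 comparisons, 28 kept their sign in every alternative. The exceptions were Adm at 8 h and Fst from 15 h to 24 h, both close to 0. Factors called at 8 h (2) became 1 with the replicate block, 1 with only the groups compared, 4 with array weights, 1 within the labels' chip 1, 0 within either reading of chip 2, and 1 to 3 with an array left out. From 15 h to 24 h (2) they became 1 in the authors' values, in the matched chip 1, in the labels' chip 2 and with only the groups compared, 0 within the labels' chip 1, 4 with array weights and 1 to 3 with an array left out. The block changed no other count of factors or list genes by over 1.5 times, but took the share of all genes called at 8 h from 0.434% to 0.154%. List counts at 8 h within the matched chip 1 were 3 receptors, 3 relatives, 8 regulators and 4 other secreted factors, and with array weights 4, 5, 10 and 12. Regulators ran from 0 to 3 and other secreted factors from 1 to 2 with an array left out, the latter 2 without scaling and 0 within either chip of the labels. At 15 h receptors (14) became 7 and 4 within the labels' chips 1 and 2 and 6 within the matched chip 2, and relatives (13) 8 within each of the labels' chips. At 24 h within the labels' chip 1 receptors (14) became 8, relatives (16) 6 and regulators (16) 9, and receptors were 9 within the labels' chip 2 and 8 within the matched chip 2. Fewer arrays enter a single chip. The share of all genes called at 8 h ran from 0% to 24.05%, the latter with array weights. Of 81 results for named list genes 47 kept their call throughout. Reversed signs were those of Angptl6, Ramp2 and Acvr2b at 15 h (-0.076, -0.17 and -0.058; -0.20, -0.29 and -0.18; -0.043, -0.13 and -0.017 under median scaling, no scaling and the authors' values) and of Nrp2 with no detection filter (0.016 and 0.085); the cause was not tested. Factors at background in vehicle (Gdf15, Adm) have only bounds, and with 3 arrays a group small changes can be missed.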
